A study of Homo sapiens with 6 samples.

Results

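The guanosine sites are the positions at which the transcript carries G and at which reads with another base were listed after sodium borohydride (NaBH4) treatment of RNA. They were chosen by the base column of the site lists alone, without use of any measured value. There were 218 guanosine sites among 1352 listed sites in the control and 158 among 1001 in NAT10 knockdown, or 376 of 2353 in all. Each listed site has a mismatch level, which is the percent of the reads at that position that show a base other than G.

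The cells were PANC-1, an established human pancreatic cancer line, and both groups came from this single line. The control received a control construct and the other group a construct against NAT10, and the labels name both siRNA and shRNA as the means. Captured mRNA was reduced with 100 mM NaBH4 at 55 °C for 30 min, and an aliquot was left untreated, so each of 3 control and 3 knockdown samples has a treated and an untreated library. Whether the samples came from separate cultures is not stated, so the spread between them may be technical.

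N4-acetylcytidine (ac4C) is an acetylated form of cytidine in RNA, and NAT10 is the enzyme that adds the acetyl group. Borohydride reduces ac4C, the reduced base is misread during reverse transcription, and the cytidine is then seen as T in part of the reads. The assay is thus read at cytidine, and a mismatch at guanosine lies outside its target. Borohydride also reduces N7-methylguanosine and is used for mapping it, methyl groups on the Watson-Crick face of guanosine cause misreading, and oxidised guanine is known to be read as T. No such modification was measured in these samples.

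At the 218 control sites the treated libraries held 124923 reads in all, of which 3139 showed another base, and the untreated libraries held 89515 reads. At the 158 knockdown sites there were 86508 treated reads, 2201 of them with another base, and 68335 untreated reads. No guanosine site had a mismatched read in any untreated library, and each had at least 3 in every treated library. An excess of treated over untreated mismatches was thus a property of the lists, and it was not tested. By library, the guanosine sites held 40807 to 42235 treated and 26786 to 32237 untreated reads in the control, and 28414 to 29344 treated and 21684 to 24012 untreated reads after knockdown. With no mismatched read among the untreated reads of a site, 3 reads of that depth is the level that could have been missed. Every treated library exceeded the limit from its own untreated library at 35 of 218 control sites, or 16.1%, and at 44 of 158 knockdown sites, or 27.8%. The shares of the other listed sites were higher in both groups, at 256 of 1134, or 22.6%, and 281 of 843, or 33.3%. The limit from the pooled untreated libraries was exceeded at 211 of 218 control sites, or 96.8%, and at 156 of 158 knockdown sites, or 98.7%. Of the other listed sites it was 1121 of 1134, or 98.9%, and 840 of 843, or 99.6%. With at least 3 mismatched reads in every treated library, most sites pass this pooled limit by being listed, so it tests nothing. These limits, and the intervals below, cover counting error alone.

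Sequences were at hand for gene starts alone, where a small part of the guanosine sites lay, and they are shown first. They are from RefSeq gene-start sequences of GRCh38.p14 that cover 250 bases before and 50 bases after each start, written 5′ to 3′ on the transcript strand, with the listed guanosine in capitals. The reference base was G at all 22 control and all 4 knockdown guanosine sites that fell in such a sequence on either strand. Of these, 19 control and 4 knockdown sites lay on the strand of the gene. The first set shows the control sites in the first 50 bases of a gene at which T was the sole other base read. MRPL12 lies at chr17:81703375-81703395 (+), ACAP3 at chr1:1307896-1307916 (-), NUCKS1 at chr1:205750147-205750167 (-), BLCAP at chr20:37527841-37527861 (-), PRKRA at chr2:178451135-178451155 (-) and DHX16 at chr6:30672957-30672973 (-), where the last is cut off by the end of the sequence.
MRPL12: cggctcgaatGcccggcagcc
ACAP3: gggcgccgagGcggcgcgggc
NUCKS1: acgggggagcGgggggctcgt
BLCAP: gcgagctgagGtggaggcagg
PRKRA: gcaggaggcgGgggagtcgga
DHX16: gatcctagagGtcccaa

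The second set shows 3 places at gene starts with more than 1 guanosine site, and here the capitals mark every listed site, whatever its base. PDCD10 lies at chr3:167734917-167734936 (-) in the control, PSMD12 at chr17:67366587-67366606 (-) in NAT10 knockdown and TSR3 at chr16:1351829-1351846 (-) in the control.
PDCD10: cgactccgGCtGggcaggat
PSMD12: cctgagcgGgtGcgCgggca
TSR3: cggccgtgGGgtggggag

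Of the 19 control guanosines in these sequences, 12 followed another G, against 33.2% of every G in 1 gene-start sequence per gene. The base after the site was G at 8 of 18 and C at 7 of 18, with shares of 33.2% and 30.1% over every G. These are descriptions of short windows, and the counts are small.

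Guanosine was read mostly as A or T. In the control, A made up 48.5%, 43.5% and 44.1% of the mismatched reads at guanosine sites in replicates 1 to 3, a mean of 45.4% ± 2.75 (SD, n = 3). In NAT10 knockdown the shares were 55.2%, 56.2% and 52.4%, a mean of 54.6% ± 1.94 (SD, n = 3). All knockdown samples lay above all control samples. The difference of 9.22 percentage points gave an exact permutation p = 0.1 (two-sided), the smallest that 3 against 3 samples allow, and 0.24 after Benjamini-Hochberg adjustment over the 12 base changes. Without the sites in gene-start sequences the difference was 5.90 with an exact permutation p = 0.2, so the groups no longer separated. The 3 libraries of a group share 1 site list, and no test over libraries covers the error of the list itself.

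The share of T moved the other way. A, T and C make up all mismatched reads and C barely differed, so this mirrors the change in A and is not a separate result. The share of T was 39.3%, 41.9% and 43.8% in the control, with a mean of 41.6% ± 2.29 (SD, n = 3). It was 32.0%, 30.8% and 34.3% in NAT10 knockdown, with a mean of 32.4% ± 1.77 (SD, n = 3). Again the groups did not overlap, and the exact permutation p was 0.1 with an adjusted p of 0.24, so neither difference can pass the threshold in this design. Without the sites in gene-start sequences the difference of -9.27 percentage points became -5.53, with an exact permutation p = 0.2. C made up the remaining 13.0% ± 1.46 of control and 13.0% ± 0.217 of knockdown mismatched reads (SD, n = 3), with a two-sided exact permutation p = 1. Separation of the groups was not particular to guanosine. They also did not overlap for A and G at cytidine sites and for C at thymidine sites, each with an exact permutation p = 0.1.

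**Figure D1:**
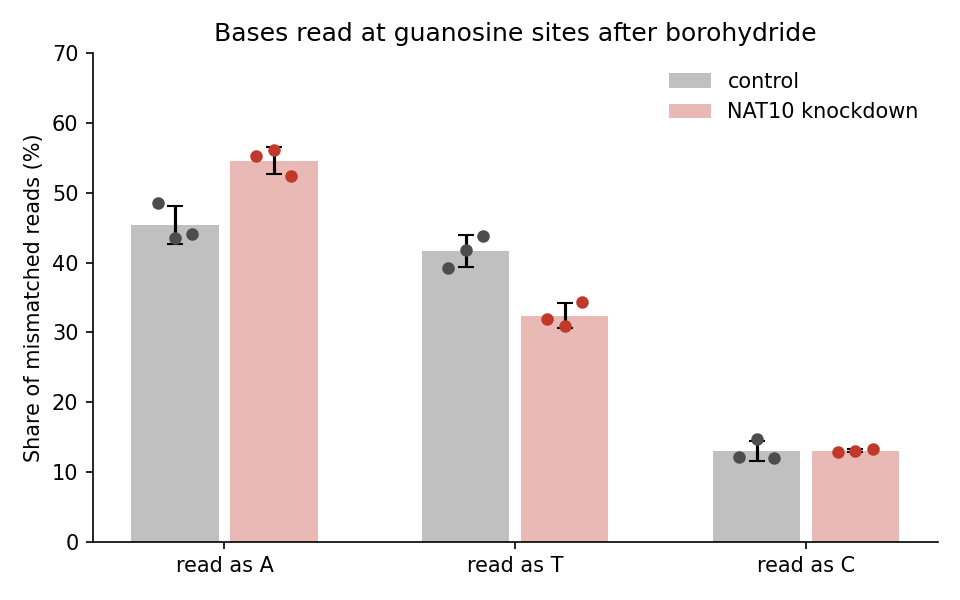
Share of A, T and C among the mismatched reads at guanosine sites, in percent, in 3 control and 3 NAT10 knockdown treated libraries. Points are libraries, bars are means and error bars the SD. The knockdown libraries lie above the control libraries for A (52.4% to 56.2% against 43.5% to 48.5%) and below them for T (30.8% to 34.3% against 39.3% to 43.8%), and the groups overlap for C.

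Sites were also counted, with each site assigned to the base that made up most of its mismatched reads. T was the main base at 85 of 218 control sites, or 39.0% (32.8% to 45.6% as a 95% Wilson interval), and at 39 of 158 knockdown sites, or 24.7% (18.6% to 32.0%). The odds ratio was 0.514, and 0.619 without the sites in gene-start sequences. These counts come from 1 joint list per group, and sites are not replicates of a condition, so they are given as a description with no test.

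A was the main base at 114 of 218 control sites, or 52.3% (45.7% to 58.8%), and at 100 of 158 knockdown sites, or 63.3% (55.5% to 70.4%). The odds ratio was 1.57. C was the main base at 18 control and 12 knockdown sites, an odds ratio of 0.914. A tie between bases left 1 control and 7 knockdown sites without a main base.

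The number of guanosine sites was lower in NAT10 knockdown, 158 against 218, a ratio of 0.725 (95% exact interval 0.587 to 0.894, counting error alone). Guanosine was a similar part of both lists, with an odds ratio of 0.975 against all other bases, again from 1 list per group. The lists were called separately, and no guanosine position stood in both, where 1 position of any base did. A position that is missing from a list may have had too few reads there, and the depth at unlisted positions is not given.

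Levels were low and similar in both groups. The median mismatch level over the guanosine sites was 2.84%, 2.85% and 2.64% in the control treated libraries, a mean of 2.78% ± 0.121 (SD, n = 3). In NAT10 knockdown it was 3.01%, 2.73% and 2.82%, a mean of 2.85% ± 0.142 (SD, n = 3). The groups overlapped, and the difference of 0.0750 percentage points had an exact permutation p = 0.6 (two-sided). Site means ran from 0.880% to 31.9% in the control and from 0.895% to 32.9% in NAT10 knockdown.

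The main base went with level and depth. Control sites read mainly as A had a median level of 3.46% at a median of 399.5 treated reads, summed over 3 libraries, and those read mainly as T had 2.25% at 642 reads. In NAT10 knockdown the medians were 3.72% at 370.5 reads for A and 1.94% at 758 reads for T. Sites read mainly as C had medians of 2.65% at 562.5 reads in the control and 2.18% at 580 reads in NAT10 knockdown. Since each library needs a few mismatched reads for a site to be listed, a low level can be listed at a deep site and not at a shallow one. The median number of mismatched reads was 13 for A and 14 for T in both groups.

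**Figure D2:**
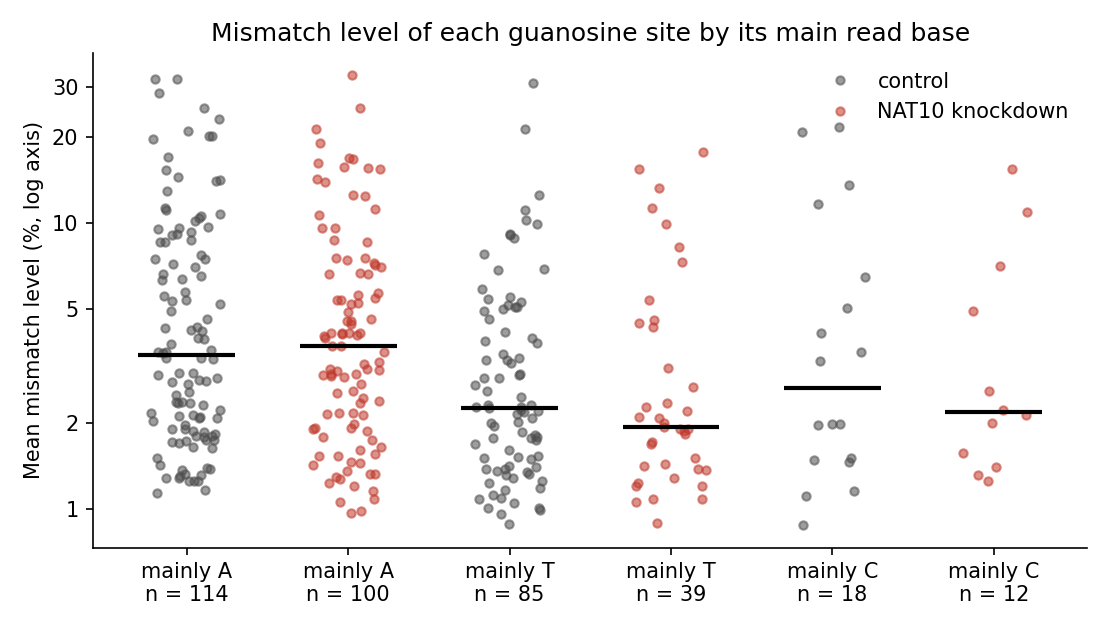
Mean mismatch level of each guanosine site over 3 treated libraries, in percent on a log axis, by the base that made up most of its mismatched reads. Points are sites (grey control, red NAT10 knockdown), and black lines are medians, which stand at 3.46% and 3.72% for A, 2.25% and 1.94% for T and 2.65% and 2.18% for C.

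Guanosine sites of the control and of NAT10 knockdown differed in how many lay at gene starts. In the control, 15 of 218 guanosine sites, or 6.88% (95% Wilson interval 4.21% to 11.0%), lay in the first 50 bases of a gene on its strand. In NAT10 knockdown there were 0 of 158, with a 95% Wilson interval up to 2.37%. Over the other bases the shares were 33 of 1134, or 2.91% (2.08% to 4.06%), in the control and 7 of 843, or 0.830% (0.403% to 1.70%), in NAT10 knockdown. Among them, cytidine had 21 of 394 in the control and 5 of 292 in NAT10 knockdown. The pattern was noticed in these data and is given without a test. In the bases 50 to 199 after the start the shares were close, at 9 of 218 and 7 of 158 guanosine sites.

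All 15 control guanosines in the first 50 bases were read mainly as T, and T made up 199 of their 232 mismatched reads, or 85.8%. Outside the gene-start sequences the share of T was 37.4% for control sites and 31.8% for knockdown sites. The genes were not of a single kind. NOP10, a component of the H/ACA particles that guide pseudouridylation, had its site at base 6 of the gene with T read 7, 8 and 7 times among 795, 847 and 650 treated reads. It was the most deeply read guanosine site of the control, with 2292 treated and 2237 untreated reads, and its level was 1.01% ± 0.109 (SD, n = 3), against 0.134% that the untreated reads could have missed.

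MRPL12, a protein of the large mitochondrial ribosome subunit, had T 7, 4 and 10 times among 97, 104 and 103 reads at base 19, and a level of 6.92% ± 2.94 (SD, n = 3). ACAP3, a GTPase-activating protein for ARF proteins, had T 4, 3 and 3 times among 52, 30 and 52 reads at base 25, and 7.82% ± 2.12. These were the highest levels among the 15 sites. NUCKS1, a nuclear phosphoprotein, had T exactly 4 times in each library among 291, 282 and 295 reads at base 26, and 1.38% ± 0.0321. BLCAP had T 6, 5 and 3 times among 453, 385 and 317 reads, also at base 26, and 1.19% ± 0.211.

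PRKRA, an activator of the double-stranded RNA kinase PKR, had T 4, 3 and 3 times among 180, 125 and 130 reads at base 31, a level of 2.31% ± 0.0889 (SD, n = 3). DHX16, an RNA helicase of splicing, had T 6, 4 and 4 times among 205, 189 and 168 reads at base 44, and 2.47% ± 0.413. At the sites of MRPL12, ACAP3, NUCKS1, BLCAP, PRKRA and DHX16 no treated library held a read of A or C. The others were PRMT2, an arginine methyltransferase, at base 3, the cyclin gene CCNL2 at base 12, the proteasome subunit gene PSMD12 at base 17, MEAF6 at base 24, the ciliary transport gene IFT20 at base 39, the rRNA-modifying enzyme gene TSR3 at bases 41 and 42, and the G protein gene GNAI2 at base 50. Their levels ran from 0.992% at IFT20 to 5.88% at CCNL2.

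A few sites lay just before an annotated start. In the control these were TPM1, a tropomyosin gene, 22 bases before the start at 3.50% ± 1.17 (SD, n = 3), COX16, a gene for cytochrome oxidase assembly, 5 bases before it at 2.88% ± 0.270, and a PDCD10 pair. In NAT10 knockdown they were ACTR3, an Arp2/3 subunit gene, 21 bases before the start at 2.67% ± 0.319, and a PSMD12 pair. A knockdown site of FAM168B lay 155 bases before 1 start of that gene and 143 bases after another. The RefSeq table does not hold every start of every gene, so the counts at starts are lower limits.

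**Figure D3:**
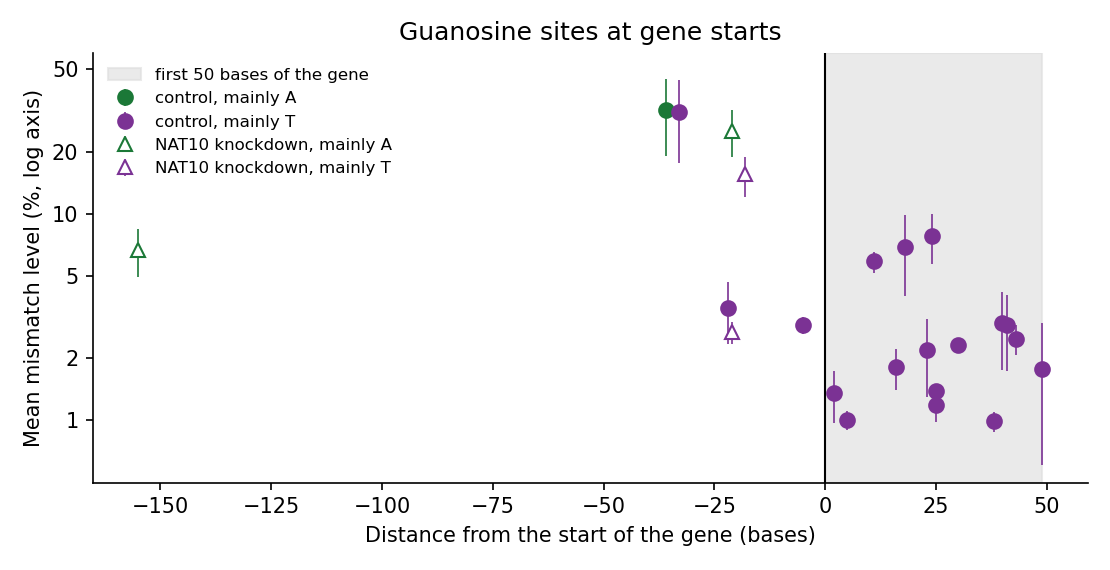
Mean mismatch level in percent (log axis) against the distance from the gene start in bases, for the guanosine sites in RefSeq gene-start sequences. Filled circles are control and open triangles NAT10 knockdown sites, purple is mainly T and green mainly A, and bars are the SD over 3 treated libraries. The shaded first 50 bases hold 15 control sites, all mainly T, and no knockdown site.

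Guanosines read mainly as T had a listed neighbour more often than those read mainly as A. Sites of the other bases were not compared, so this is not shown to be particular to G read as T. Another listed site of any base lay within 10 bases for 31 of 85 control sites read mainly as T, or 36.5% (27.0% to 47.1%). Of the sites read mainly as A it was 6 of 114, or 5.26% (2.43% to 11.0%). NAT10 knockdown had 14 of 39, or 35.9% (22.7% to 51.6%), for T and 4 of 100, or 4.0% (1.57% to 9.84%), for A. The intervals for T and A did not overlap in either group.

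**Figure D4:**
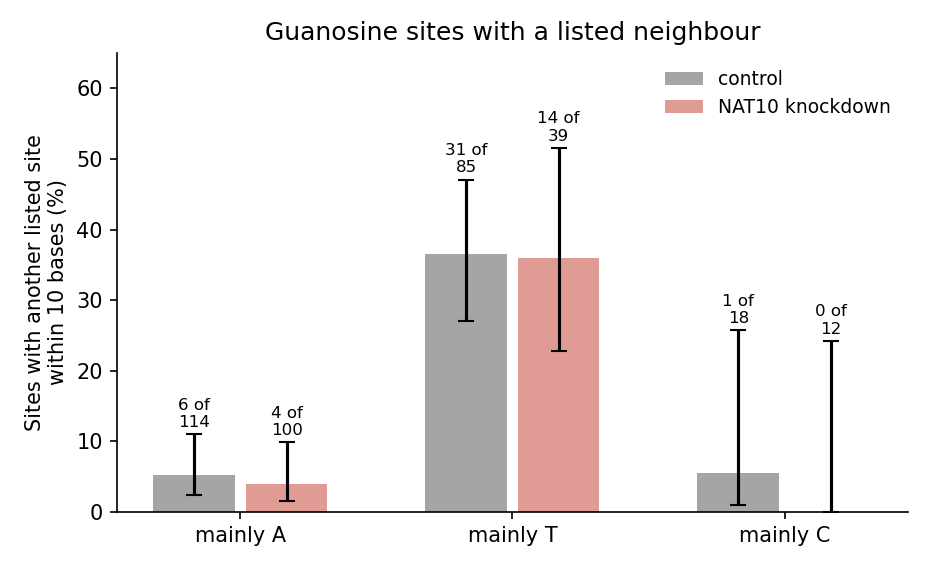
Percent of guanosine sites that have another listed site within 10 bases on the same strand, by the main base read, in the control (grey) and NAT10 knockdown (red). Bars are shares, error bars are 95% Wilson intervals, and the counts stand above them. The shares are 36.5% and 35.9% for T, against 5.26% and 4.0% for A.

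These neighbours made 47 pairs with at least 1 guanosine in the control and 29 in NAT10 knockdown. In 22 control pairs, or 46.8%, and 13 knockdown pairs, or 44.8%, both sites had the same number of mismatched reads in each of the 3 treated libraries. The tables do not say whether these mismatches lay on the same reads. The most frequent pair in the control was G read as T within 10 bases of T read as G, with 9 pairs, and NAT10 knockdown had 4 of them. C read as G within 10 bases of G read as T made another 7 pairs in each group.

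The clearest case was PDCD10, a gene linked to cerebral cavernous malformation. The sites 36 and 33 bases before its start were read as A and as T, 9, 3 and 6 times each, and the cytidine between them was read as G equally often. The levels of the guanosines were 31.9% ± 12.9 and 31.0% ± 13.3 (SD, n = 3), at 21, 17 and 17 reads for the first site. In NAT10 knockdown the PSMD12 pair, 21 and 18 bases before the start, was read as A and as T 6, 5 and 7 times each, at 25.2% ± 6.41 and 15.5% ± 3.41. TSR3 had adjacent sites in the control with 6, 3 and 7 mismatched reads each.

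Away from gene starts the guanosine pairs were those of SH3BP4, SPNS2 and FOXK2 in the control and of HSPG2 and MYH9 in NAT10 knockdown. The adjacent sites of SH3BP4, a regulator of endocytosis, were both read mainly as T with 3, 3 and 6 mismatched reads each, at 5.43% ± 2.38 and 5.54% ± 2.31 (SD, n = 3). HSPG2, which encodes the basement membrane proteoglycan perlecan, had a pair read mainly as A with 6, 4 and 3 mismatched reads each, at 12.6% ± 7.63 and 12.5% ± 7.20. The adjacent sites of SPNS2, a sphingosine phosphate transporter gene, had unequal counts of 6, 3 and 10 against 3, 4 and 8. MYH9, the nonmuscle myosin heavy chain gene, had 6, 6 and 7 against 6, 6 and 4. In FOXK2, a forkhead factor gene, 3, 8 and 3 reads showed another base at each of a site read mainly as C and a site read mainly as T.

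Among sites with at least 20 reads in every library, the highest levels of G read as A in the control were found in BUB3, a spindle checkpoint gene. A was read there 5, 4 and 5 times among 22, 23 and 20 reads, a level of A of 21.7% ± 3.91 (SD, n = 3). The next were SSR3, a subunit of the translocon-associated complex, at 10.5% ± 3.43, RELA, the p65 subunit of NF-kB, at 10.2% ± 5.36, FOXP4 at 9.61% ± 1.48 and CPT1A, the carnitine palmitoyltransferase of fatty acid import, at 9.12% ± 1.34. In NAT10 knockdown SUMO3, a ubiquitin-like modifier, led with A 4, 8 and 4 times among 59, 46 and 23 reads, or 13.9% ± 6.13. It was followed by TSKU at 10.7% ± 6.88, CDC34, a ubiquitin-conjugating enzyme, at 8.20% ± 5.04, the ETS factor ETV5 at 7.44% ± 4.48 and COPS7B, a COP9 signalosome subunit, at 7.18% ± 2.70.

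The spread within these sites was wide, and each rests on a few mismatched reads per library. Under the same limit of 20 reads, G read as T in the control was led by KCTD18 at 10.4% ± 4.55 (SD, n = 3), with 2, 4 and 3 reads of T, and TLE3, a Groucho corepressor, at 10.3% ± 2.11. SCHIP1 at 8.42% ± 0.956, MRPL12 and SH3BP4 followed. In NAT10 knockdown the second PSMD12 site led at 15.5% ± 3.41, before the transcription factor RFX7 at 9.93% ± 4.48, GID8, a subunit of the CTLH ubiquitin ligase, at 7.62% ± 0.681, ALG3, a mannosyltransferase of N-glycan assembly, at 7.33% ± 2.32 and GLUD1, glutamate dehydrogenase, at 5.41% ± 2.21. Of these leading T sites, 4 of 5 in each group had a listed neighbour, the exceptions being KCTD18 and GID8.

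G read as C was rarer and lower. Its highest levels in the control were in NFKBIA, the inhibitor of NF-kB, at 3.77% ± 1.88 (SD, n = 3), in the overlapping genes DPAGT1 and H2AX at 3.55% ± 2.16, in the inflammasome adaptor PYCARD at 2.98% ± 1.26, in the overlapping genes IL4I1 and NUP62 at 2.24% ± 0.616 and in FOXK2 at 1.98% ± 0.859. In NAT10 knockdown they included the sites in the keratin gene KRT80 at 5.55% ± 4.26, in DHX40 at 5.06% ± 2.61, in CNNM3 at 1.96% ± 0.889 and in KRT19 at 1.68% ± 0.665. KRT80 had C 4, 1 and 11 times among 78, 66 and 110 reads, so the third library gave most of its reads.

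The most deeply read sites had low levels. After NOP10 they were HNRNPH1 at 0.880% ± 0.304 and HNRNPD at 1.35% ± 0.531, both genes of nuclear RNA-binding proteins, TXNDC5, an endoplasmic reticulum disulfide isomerase, at 0.890% ± 0.356 and the coatomer subunit COPG1 at 0.963% ± 0.456 (SD, n = 3), with 1804 to 2273 treated reads. In NAT10 knockdown they were the integrin gene ITGA3 at 1.16% ± 0.548, EEF1G at 1.06% ± 0.448, HSPA4 at 0.895% ± 0.270, WSB2 at 1.94% ± 0.890 and SEMA4B at 1.09% ± 0.231, with 1388 to 1705 treated reads.

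The control guanosine sites fell in 214 protein-coding genes and the knockdown ones in 150, with 2 sites in each group outside any such gene. On the strand of their gene lay 186 control sites, against 1 on the opposite strand and 29 in genes of unknown strand, and 133 knockdown sites, with 0 opposite and 23 unknown. Genes with a guanosine site in both lists numbered 9, or 4.21% of the control genes and 6.0% of the knockdown genes, always at different positions. A site of any base in the other list was held by 42 of the control genes, or 19.6%, and 36 of the knockdown genes, or 24.0%, and over all listed genes the shares in both lists were 18.6% and 24.6%. The 9 genes with a guanosine site in both lists were BAG6, CDC34, DYNC1H1, EHD1, FURIN, IGF2R, MGRN1, RFWD3 and TIMM50. Exon, intron and untranslated region were not analysed here.

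Within the shared genes the main base was A in both groups for BAG6, IGF2R and MGRN1. It was T in both for FURIN and C in both for EHD1. For DYNC1H1 and RFWD3 it was T in the control and A in NAT10 knockdown. TIMM50, a subunit of the mitochondrial import channel, had a control site at 3.96% ± 0.677 (SD, n = 3) and a knockdown site 144 bases away at 2.35% ± 0.755. Both were read mainly as T and had a listed neighbour. A further TIMM50 site of NAT10 knockdown was read mainly as A, at 5.48% ± 1.45. MGRN1, a ubiquitin ligase, had 7.51% ± 4.34 at 211 treated reads in the control and 1.32% ± 0.160 at 1278 reads in NAT10 knockdown, at different positions. CDC34 had 2.31% ± 1.16 in the control, mainly T, and 8.74% ± 4.57 in NAT10 knockdown, mainly A.

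Of all protein-coding genes with a listed site, 214 of 1069 in the control, or 20.02%, and 150 of 809 in NAT10 knockdown, or 18.5%, had a guanosine site, and the gene lists are given beside these shares. Of 51 focal adhesion and actin genes, 14 had a listed site of any base in the control and 4 had a guanosine site, and in NAT10 knockdown 10 had a site and 1 a guanosine site. The control ones included BCAR1 at chr16:75233889, an adaptor protein of integrin signalling, at 1.64% ± 0.137 (SD, n = 3), and the laminin chain genes LAMA3 at 11.3% ± 3.19 and LAMA5 at 5.22% ± 3.68. In NAT10 knockdown ITGA3 had a further site, at 1.31% ± 0.350. Of the 9 genes that the study followed up, all 9 had a listed site in the control and 3 in NAT10 knockdown. Apart from NAT10, the paper picked these genes partly from the same ac4C-seq data. These counts were thus largely fixed by that choice and are no result about the genes. BCAR1 alone had a guanosine site in the control, and none had one in NAT10 knockdown. That site lay 6 bases from a thymidine site of the NAT10 knockdown list at 2.60% ± 0.712, and it was the one guanosine site within 10 bases of a site of the other list.

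Of 83 ribosomal protein genes 2 had a listed site in the control and 1 in NAT10 knockdown, none of them a guanosine, too few to set against the share over all genes. Of 70 genes with a translation factor symbol 10 had a listed site in the control and 4 in NAT10 knockdown, and 2 in each group had a guanosine site. In NAT10 knockdown these were EEF1G and EIF4A1, the helicase of translation initiation, at 1.87% ± 0.520 (SD, n = 3). In the control a single site made up this count, in EEF1AKMT4, a lysine methyltransferase gene, at 6.50% ± 1.15, which also lies in its read-through gene. Of 25 RNA modification genes 4 had a listed site in the control and 3 in NAT10 knockdown, of which RNMT, the cap guanine N7-methyltransferase, had a guanosine site in NAT10 knockdown at 2.98% ± 1.03. Of 15 DNA repair genes 2 had a listed site in each group, of which APEX1, the endonuclease of base excision repair, had a guanosine site at 2.96% ± 0.379, also in NAT10 knockdown. Of 8 ductal line markers 1 had a listed site of any base in each group, and KRT19 had a guanosine site in NAT10 knockdown. Of 3 fibroblast markers 1 had a listed site in NAT10 knockdown, and no acinar or immune marker had a listed site. No acinar, fibroblast or immune marker had a guanosine site in either group. These tables give no expression levels, so cell identity could not be checked.

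Along the gene, guanosine sites were spread widely. Positions were taken for 179 control and 132 knockdown sites that lay in a single gene on its strand. With introns included, the median control position was 65.5% of the gene span from its start, and the median knockdown position 69.8%. The quartiles were 31.3% and 88.4% in the control, and 38.7% and 89.0% after knockdown.

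Guanosine sites had higher levels than the other listed sites of the same library. The median over other sites was 2.12% ± 0.0261 for the control libraries and 2.25% ± 0.0709 for the knockdown libraries (SD, n = 3). The excess at guanosine was 0.699, 0.756 and 0.504 percentage points in the control and 0.818, 0.505 and 0.498 in NAT10 knockdown. It was above 0 in 6 of 6 samples, with a mean of 0.630, which was 0.419 among sites with at least 20 reads in every library and 1.34 as a difference of means over sites. Guanosine sites were also read less deeply, with medians of 508 treated reads against 610 in the control and 467 against 596 in NAT10 knockdown, while the median number of mismatched reads was 13 at guanosine and other sites alike. The excess is given with no test, because the libraries of a group share 1 list and the part of depth in it was not tested.

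The main base was more constant between libraries at guanosine than at other sites. A single base was the most frequent other base in all 3 treated libraries at 140 of 218 control guanosine sites, or 64.2%, against 552 of 1134 other sites, or 48.7%. The odds ratio was 1.89 (1.39 to 2.59), with an adjusted Fisher's exact p of 6.34e-05 over both groups. In NAT10 knockdown it was 85 of 158, or 53.8%, against 359 of 843, or 42.6%, with an odds ratio of 1.57 (1.10 to 2.24) and an adjusted Fisher's exact p of 0.0112. The test takes sites as independent, although neighbouring sites can share reads, and its p-values are over listed sites and not over samples. It pools the sites of all other bases, and guanosine was not compared with each of them singly. The knockdown odds ratio missed the threshold among sites with at least 20 reads in every library, at 1.45 with an adjusted Fisher's exact p of 0.0507.

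The share of transitions, which is G read as A at guanosine, was set against the transitions of the other bases. It differed by 2.70, -3.41 and -3.55 percentage points in the control and by 8.34, 11.6 and 7.54 in NAT10 knockdown. The mean over the 6 samples was 3.87, and it ran from 2.32 without NAT10 knockdown replicate 2 to 5.36 without control replicate 3. The groups did not overlap, and the exact permutation p between them was 0.1, the smallest possible. This comparison uses the same shares of A at guanosine as above, so it is not independent of them. Without sites that have a listed neighbour the mean was 7.48, and against cytidine sites alone it turned to -4.23.

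Treated reads outnumbered untreated reads at guanosine sites 1.40 ± 0.110 times in control samples and 1.27 ± 0.0442 times in knockdown samples (SD, n = 3). The control ratios were 1.52, 1.37 and 1.31, and the knockdown ratios were 1.22, 1.31 and 1.27. The groups met at 1.31, and the exact permutation p was 0.2 (two-sided). The difference of -0.135 was -0.0744 without control replicate 1 and -0.0464 among sites with the authors' p under 0.01. Treated reads also outnumbered untreated reads at the other listed sites, with 780711 against 585794 in the control and 569313 against 488467 in NAT10 knockdown. The excess of treated reads was thus not particular to guanosine, and the groups were not tested at the other sites.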

How the data were processed

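PANC-1 mRNA was measured by ac4C-seq in 3 control and 3 NAT10 knockdown samples, with 12 libraries in all. The authors trimmed reads, removed duplicates by molecular identifiers, compiled bases at variant positions with JACUSA and tested positions with a proprietary program. The submitters' processing notes also name fastp 0.23.1, STAR 2.7.6a, featureCounts and GRCh38. The role of STAR is not given in the sources used here. Replicates entered 1 joint list per group.

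The deposited counts are reads with the reference and with any other base, and a further deposited column joins the counts of A, C, G and T in a library (unit: other). The deposited fraction is mismatched reads over all reads. The authors' p-value, whose test is not stated, served as a filter alone, at 0.01. In total 12 columns of letter codes were not used, and 0 columns could not be mapped to a sample. Counts and fractions followed from the base counts at 100% of sites in both tables.

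Shares, levels and ratios were computed per library with Python 3.11.15, pandas 2.3.3, NumPy 2.4.6 and SciPy 1.17.1, and figures with Matplotlib 3.10.9. Groups were compared with exact permutation tests over samples, with Benjamini-Hochberg adjustment over 12 base changes. Fisher's exact tests between groups over sites and sign-flip tests over samples were planned and are not reported, because each group has 1 list. Guanosine was compared with other sites within a list by Fisher's exact test. Intervals are 95%. Genes are RefSeq spans of GRCh38.p14, and starts are those of 300-base sequences, with a distance of 0 at the first base. Scripts were tested on simulated data. The sites, lists and tests were chosen with earlier results of these data known. Genes named were the 5 sites with the highest level of each base (at least 20 reads per library), the 5 deepest sites per group, genes with a guanosine site in both lists, guanosine pairs within 10 bases, guanosine sites within 10 bases of a site of the other list, and sites in the gene lists and in the genes the study followed up. A few sites that this rule names are not reported here. Gene starts were looked at after the values were seen. The tables hold no sites on chromosomes 7, 8, X and Y, so sites there were not analysed here.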

Additional observations from a re-analysis of the deposited data

How the results depend on the processing

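Over 14 results, 122 alternative values were computed, of which 94 were labelled unchanged. For most results this means the same direction and side of the threshold, and for the ratio of site numbers a value inside its interval. The permutation tests over samples cannot pass the threshold in this design, so those results could change in direction alone. Other sides came from tests that are not reported. The count is thus no measure of how stable the results are. The causes of the changes were not tested. The odds ratio of sites read mainly as T, 0.514 from 1 list per group, was 0.521 with the authors' p under 0.01, 0.519 with at least 20 reads in every library, 0.508 without neighbours, 0.602 on the strand of the gene, 0.597 where a site needed 3 reads of T in every treated library, and 0.619 without gene-start sites, an alternative chosen after seeing the data. Without gene-start sites the difference in the share of A was 5.90 and in T -5.53. The odds ratio for mainly C turned to 1.01 with at least 20 reads. The share of guanosine among listed sites turned to 1.04 with the authors' p under 0.01 and to 1.03 without neighbours. The difference in the share of C turned to -0.689 without neighbours, -1.93 on the strand of the gene, -0.0838 with each site weighted equally, -0.773 without the 5 sites with the most mismatched reads and -0.371 without gene-start sites, and ran from -0.414 to 0.892 when 1 sample was left out, below 0 without control replicate 1, control replicate 3 or NAT10 knockdown replicate 3. The difference in level turned to -0.190 as a mean over sites and ran from -0.00238, without NAT10 knockdown replicate 1, to 0.138 with 1 sample left out. The excess of guanosine over other sites ran from 0.593 to 0.657 with 1 sample left out, and was 0.419 with at least 20 reads and 1.34 as means over sites. The ratio of treated to untreated reads differed by -0.0744 without control replicate 1 and by -0.0464 with the authors' p under 0.01. The transition difference ran from 2.32 to 5.36 with 1 sample left out, and was 7.48 without neighbours and -4.23 against cytidine alone. In NAT10 knockdown the odds ratio of a constant main base was 1.45 with at least 20 reads.

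With a replicate block the differences were 9.22 for A, -9.27 for T, 0.0482 for C, 0.0750 for level and -0.135 for the ratio of treated to untreated reads, and the smallest possible p is 0.25. Same-numbered samples correlated at 0.104, 0.265 and -0.171 over the 12 base changes. Differently numbered samples ran from -0.73 to 0.78, so this check is too noisy to decide whether the numbers pair the samples. Depth limits single sites, since the median site has 13 mismatched reads in all.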
